A study of Mus musculus with 2 samples.

Results

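The collagen genes of the mouse were followed in single cells of a healing rib. They were chosen by symbol alone, as every gene in the expression matrices named Col, a type number, the letter a and a chain number, and 44 of 31054 features qualified. In each mouse, a long stretch of rib was resected and the callus, the repair tissue that bridges the gap, was collected at 4 days post injury (dpi) for scRNAseq. The control library came from Sox9:CreER;R26:tdT;Smof/+ mice, which are heterozygous for the floxed allele of *Smo*, and the *Smo* cKO library came from Sox9:CreER;R26:tdT;Smof/f mice, in which both alleles can be deleted. Smo is the receptor component through which Hedgehog signals are passed on. Both groups carried the CreER driven by *Sox9*, which acts in cells that express *Sox9*, both carried the R26 tdTomato reporter, and both received tamoxifen before surgery. The tissue was dissociated with enzymes that include collagenase, and most of the adjacent muscle was left behind. Each library pooled 3 animals, and there was 1 library per genotype. The difference between libraries therefore has no replicate check, the intervals given are 95% counting intervals that cover counting error only, and genotype cannot be told apart from any other difference between the 2 libraries.

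Collagens are the main proteins of the extracellular matrix, and each collagen protein is built from 3 chains that wind into a triple helix. Fibrillar collagens (types I, II, III, V, XI, XXIV and XXVII) assemble into fibrils, of which type I is the chief protein of bone and tendon and type II that of cartilage. Network collagens form sheets, with type IV in basement membranes and type VIII in vessel walls and other matrices. Type VI makes beaded microfibrils, and the fibril-associated collagens with interrupted helices (FACIT; types IX, XII, XIV and XVI among them) sit on the surface of fibrils. Types XV and XVIII, the multiplexins, are found near basement membranes, while types XIII, XVII, XXIII and XXV span the cell membrane. In a fracture callus, matrix that is rich in types I and III gives way to cartilage matrix with type II, and later to bone.

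The triple helix can be read directly in the genes, because the helix needs a glycine, encoded by a GGN codon, at the start of each repeat of 3 residues. One coding exon of 54 bases is shown for 5 fibrillar genes, to show the repeat that unites the members, with the glycine codons of the repeat in capitals (GENCODE vM21 on mm10, 5′ to 3′ on the strand of the gene).
Col1a1 (chr11:94939904-94939957, plus strand): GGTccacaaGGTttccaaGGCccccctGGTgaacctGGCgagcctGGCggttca
Col1a2 (chr6:4515481-4515534, plus strand): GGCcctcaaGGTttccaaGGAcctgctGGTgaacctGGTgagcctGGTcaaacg
Col2a1 (chr15:97996489-97996542, minus strand): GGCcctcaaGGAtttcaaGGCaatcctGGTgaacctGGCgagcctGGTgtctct
Col3a1 (chr1:45325360-45325413, plus strand): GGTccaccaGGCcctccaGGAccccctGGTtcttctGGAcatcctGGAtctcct
Col5a2 (chr1:45422386-45422439, minus strand): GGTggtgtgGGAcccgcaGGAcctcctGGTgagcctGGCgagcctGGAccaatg

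Each of these exons holds 6 repeats of 9 bases and begins with a whole glycine codon. The exons of *Col1a1* and *Col1a2*, whose products join in type I collagen, matched at 42 of 54 bases, and those of *Col1a1* and *Col2a1* at 43 of 54. The exon of *Col1a1* matched that of *Col3a1* at 35 of 54 bases and that of *Col5a2* at 33 of 54. Exons picked the same way from the FACIT genes *Col12a1* and *Col14a1* matched it at 30 and 23 of 54. The exons were picked by length and place, were not aligned as counterparts, and all share the glycine codons. The matches therefore do not measure how related the genes are. Over the 11 fibrillar genes the longest unbroken run of the repeat spanned 216 to 344 triplets, with 338 in *Col1a1*, 339 in *Col1a2* and 344 in *Col3a1*, and *Col24a1* and *Col27a1* had the shortest runs at 216 and 217. Of the 470 coding exons inside these runs, 284 (60.4%) were 54 bases long and all 470 were a multiple of 9 bases. The runs were shorter in every other group, with 39 to 66 triplets in the 9 network genes, 37 to 87 in the 6 beaded genes and 32 to 113 in the 9 FACIT genes.

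Several members lie side by side on mm10. *Col4a1* (chr8:11198423-11312826, minus strand) and *Col4a2* (chr8:11312805-11449287, plus strand), the chains of the common basement membrane collagen, run away from each other, and their gene bodies overlap by 22 bases at their starts. Those 22 bases are shown because both genes begin in them (bounds from GENCODE vM21, letters from RefSeq on GRCm38.p6, plus strand).
Start shared by Col4a1 and Col4a2 (chr8:11312805-11312826): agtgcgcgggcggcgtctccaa
*Col4a4* and *Col4a3* on chromosome 1 (71 bases apart) and *Col4a6* and *Col4a5* on chromosome X (1308 bases apart) have the same head-to-head layout. *Col3a1* and *Col5a2* lie tail to tail on chromosome 1 with 24614 bases between them, *Col6a2* and *Col6a1* follow each other on chromosome 10, and *Col6a6*, *Col6a5* and *Col6a4* lie in a row on chromosome 9. RefSeq promoter windows, from 250 bases before to 50 after the start, were at hand for 35 of the 44 members. The letters GGGCGG, the GC box, stood on either strand in 22 of these 35 windows (62.9%) and in 35.7% of 32851 promoter windows, and the letters CCAAT stood in 13 of 35 (37.1%) and in 37.4% of all. The GLI letters GACCACCCA, by which the transcription factors of the Hedgehog pathway bind, stood in 0 of the 35 windows and in 0.253% of all windows, which says only that these letters are not in these windows.

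After cells with fewer than 200 genes or with 10% or more mitochondrial UMIs were left out, 10057 control cells (104189394 UMIs, median 8367 per cell) and 9507 *Smo* cKO cells (110863278 UMIs, median 9092) remained. Cells were placed in classes by markers that include no collagen gene, so that each class is a range of marker detection. Among cells with 3 or more markers of some list, 9.72% of control and 11.4% of *Smo* cKO cells lay near a gate. The connective-like class, in which all 12 of its markers were found in over 10% of cells, held 6413 control cells (63.8% of those kept) and 5432 *Smo* cKO cells (57.1%), with medians of 11316 and 13876.5 UMIs. In 445 control and 646 *Smo* cKO cells, the share found of the best marker list was under 1.5 times that of an unrelated list. These cells, which would include doublets, and cells that passed no gate (791 and 540) were left out of the classes. No doublet caller was run. *Smo* was at 19.2 counts scaled to 1000000 UMIs (CPM) in control and 12.2 CPM in *Smo* cKO connective cells, and tdTomato was detected in 49 and 122 of them. *Isg15*, an interferon-stimulated gene, stood at 12.4 (control) and 162 CPM (*Smo* cKO) in connective cells, and 2.14% of control but 32.8% of *Smo* cKO connective cells held 2 or more *Isg15* UMIs. The 2 libraries shared 599 cell barcodes among the cells kept. The control cell of such a pair had a median of 806 UMIs and the *Smo* cKO cell 30939, 489 of the 599 pairs were over 10-fold apart in UMIs, and 195 pairs had the same gate. The collagen share and the ratios between libraries were also computed without these barcodes.

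All 44 collagen genes had at least 1 UMI in both libraries, yet 3 genes carried most of the signal. In connective cells *Col1a2* was at 10601 CPM (control) and 9193 CPM (*Smo* cKO), *Col3a1* at 9638 and 7881 CPM, and *Col1a1* at 9472 and 8143 CPM. UMIs count molecules, so that these levels were not divided by transcript length. Of the collagen UMIs of connective cells, *Col1a2* held 28.7% and 29.0% (control and *Smo* cKO), *Col3a1* 26.1% and 24.8%, and *Col1a1* 25.6% and 25.7%. The next genes were *Col5a2* (1346 and 1138 CPM) and *Col5a1* (1056 and 893 CPM), the chains that start and limit type I fibrils, followed by the type VI chains *Col6a3* (928 and 817 CPM), *Col6a1* (901 and 833 CPM) and *Col6a2* (764 and 665 CPM). At a level of 10 CPM or more in at least 1 library, 22 collagen genes were present in connective cells, and 31 of the 44 reached it in some class or subclass of 50 or more cells per library.

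**Figure D1:**
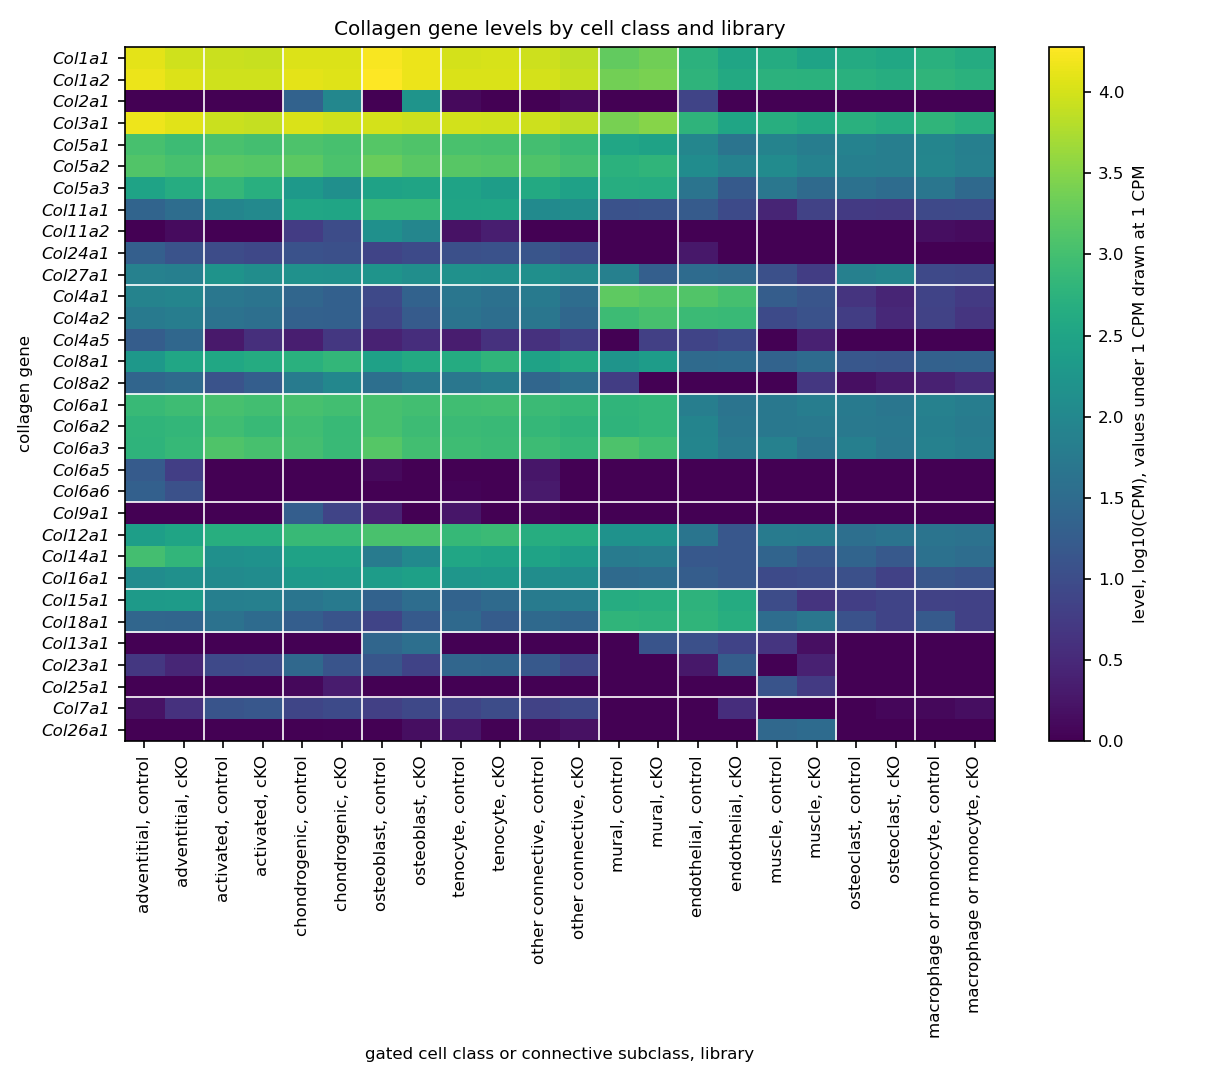
Heat map of collagen gene levels (log10 CPM, rows grouped by collagen type in the order fibrillar, network, beaded, FACIT, multiplexin, transmembrane and other) in gated classes and connective subclasses (columns, control beside *Smo* cKO). The 3 rows of *Col1a1*, *Col1a2* and *Col3a1* are bright in every connective column, at 7034 to 19050 CPM, while *Col4a1*, *Col4a2*, *Col15a1* and *Col18a1* are brightest in the mural and endothelial columns.

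The other 13 members stayed below this level in every such class. These were *Col4a3*, *Col4a4*, *Col4a6*, *Col6a4*, *Col9a2*, *Col9a3*, *Col10a1*, *Col11a2*, *Col17a1*, *Col19a1*, *Col20a1*, *Col22a1* and *Col28a1*. *Col10a1*, which marks hypertrophic chondrocytes, the late cells of growth cartilage, had 2 UMIs in the whole control library and 4 in the *Smo* cKO library. The 3 chains of type IX collagen, a partner of type II on cartilage fibrils, were low as well, with 176, 111 and 56 UMIs of *Col9a1*, *Col9a2* and *Col9a3* in the control library and 71, 85 and 45 in the *Smo* cKO library.

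The share of UMIs taken by collagens differed between classes far more than between libraries. Collagens were 3.70% of UMIs in control connective cells (95% interval 3.69 to 3.70%) and 3.17% in *Smo* cKO connective cells (3.17 to 3.18%). In macrophage- or monocyte-like cells they were 0.243% and 0.199%, in muscle-like cells 0.214% and 0.184%, and in osteoclast-like cells 0.202% and 0.179%. Mural-like cells, the pericytes and smooth muscle of vessels, stood between, at 1.45% in 24 control cells and 1.59% in 16 *Smo* cKO cells. Endothelial-like cells were at 0.583% in 52 control cells and 0.427% in 57 *Smo* cKO cells.

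Droplet libraries contain free RNA, which gives a low level of abundant genes in every cell, and that level was not measured in empty droplets here. In control macrophage- or monocyte-like cells, 22 collagen genes stood at a median of 8.45% of their connective level, and 19 of them lay between the 4.80% of *Col24a1* and the 11.4% of *Col14a1*. *Col3a1* was found in 78.6% of control macrophage- or monocyte-like cells (median 2510 UMIs) beside 99.9% of connective cells (median 11316 UMIs). With each cell thinned to 1000 UMIs the shares were 47.0% and 99.0%. Levels of this size in the blood lineage classes are not taken as expression here, and their source was not tested. Mural-like cells stood higher, with a median of 36.0% (control) and 40.2% (*Smo* cKO) of the connective level.

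**Figure D2:**
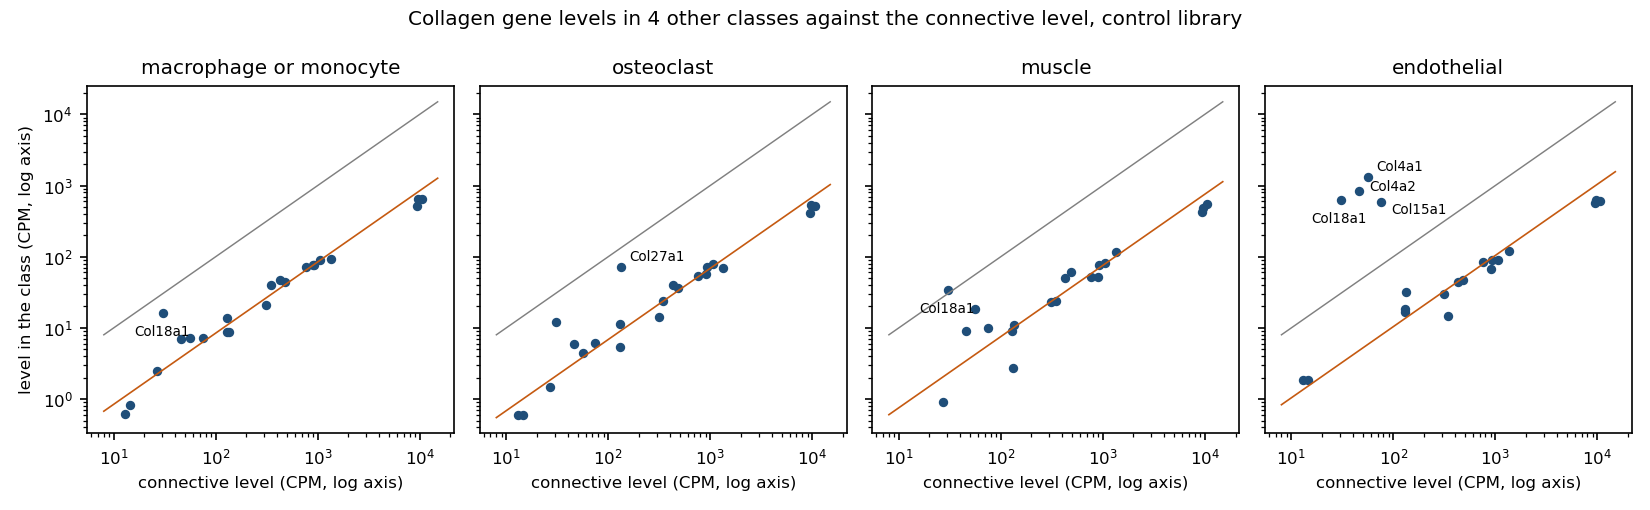
Level of each collagen gene in 4 classes of the control library (CPM, log axis) against its level in connective cells (CPM, log axis); the grey line marks equal levels, the orange line the median share for the class, and genes above 50% of their connective level are named. In macrophage- or monocyte-like cells 19 of 22 genes lie between 4.80% and 11.4% and *Col18a1* is off the line at 53.2%, *Col27a1* stands off the line in osteoclast-like cells at 53.7%, and *Col4a1*, *Col4a2*, *Col15a1* and *Col18a1* lie above equality in endothelial-like cells.

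A few members stood clear of that low range outside the connective class. *Col27a1*, a fibrillar chain known from cartilage, was at 72.0 (control) and 84.7 CPM (*Smo* cKO) in osteoclast-like cells, which was 53.7% (47.1 to 61.0%) and 76.6% (66.6 to 87.7%) of its connective level, whereas the median collagen gene in osteoclast-like cells was at 6.87% and 6.42%. In macrophage- or monocyte-like cells *Col27a1* was at 6.55% and 7.49% of its connective level. *Col26a1* reached 27.5 (control) and 31.2 CPM (*Smo* cKO) in muscle-like cells, against 0.921 and 1.23 CPM in connective cells. *Col25a1*, a membrane collagen known for its part in the innervation of muscle, was at 12.8 CPM (14 UMIs) and 5.44 CPM (11 UMIs) in muscle-like cells and at 0.198 and 0.305 CPM in connective cells. *Col18a1*, the source of endostatin, was at 33.9 and 49.0 CPM in muscle-like cells, 111% and 192% of its connective level. In macrophage- or monocyte-like cells *Col18a1* stood at 53.2% of the connective level (control) and 26.9% (*Smo* cKO), above all other members there. In osteoclast-like cells *Col18a1* stood at 39.5% (41 UMIs) and 29.3% (19 UMIs) of that level.

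The basement membrane genes marked the vessel classes. *Col4a1* was at 1297 (control) and 1060 CPM (*Smo* cKO) in endothelial-like cells, *Col4a2* at 832 and 801 CPM, *Col18a1* at 627 and 490 CPM, and *Col15a1* at 594 and 424 CPM. Mural-like cells carried *Col4a1* at 1639 and 1431 CPM, *Col4a2* at 847 and 1093 CPM, *Col18a1* at 622 and 592 CPM, and *Col15a1* at 439 and 475 CPM. In connective cells the same genes were far lower, between 25.4 CPM for *Col18a1* and 74.9 CPM for *Col15a1* over both libraries. In endothelial-like cells the main fibrillar genes were low, with *Col1a1* at 573 and 329 CPM against 9472 and 8143 CPM in connective cells. Mural-like cells held some fibrillar and beaded collagens at the connective level, with *Col5a3* at 469 and 449 CPM (109% and 134% of that level) and *Col6a3* at 1213 and 911 CPM (131% and 111%). Levels of mural-like cells rest on 24 and 16 cells. The markers of the connective class were together at 2383 (control) and 2882 CPM (*Smo* cKO) in these cells. They were at 4939 and 4934 CPM in connective cells and at 571 and 589 CPM in endothelial-like cells. The part of connective RNA in the collagen levels of mural-like cells was not tested.

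Some paired chains kept a narrow range of ratios across the connective subclasses and mural-like cells, and others did not. Classes in which most collagens were at a small share of their connective level are left out of these ranges. The ratio of *Col1a2* to *Col1a1* UMIs lay between 1.01 and 1.29 over 14 values, each 1 class or subclass of 1 library, with a median of 1.12. *Col6a1* to *Col6a2* lay between 0.972 and 1.29 over 14 values. *Col4a1* to *Col4a2* lay between 1.02 and 1.94 over 13 values with a median of 1.22, although the *Col4a1* level behind these values ran from 20.7 CPM in *Smo* cKO chondrogenic-like cells to 1639 CPM in control mural-like cells. In endothelial-like cells *Col4a1* to *Col4a2* was 1.56 (control) and 1.32 (*Smo* cKO). By contrast *Col12a1* to *Col14a1*, which encode FACIT collagens that are not chains of 1 protein, spanned 0.249 in control adventitial-like cells to 18.9 in control osteoblast-like cells. *Col11a1* to *Col11a2*, although both encode chains of type XI, spanned 5.38 in control osteoblast-like cells to 177 in *Smo* cKO activated-like cells, and *Col8a1* to *Col8a2* spanned 7.08 to 27.7. The ends of the *Col11a1* to *Col11a2* range rest on 108 and 11 *Col11a2* UMIs. Of the 108, 57 came from 1 cell.

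**Figure D3:**
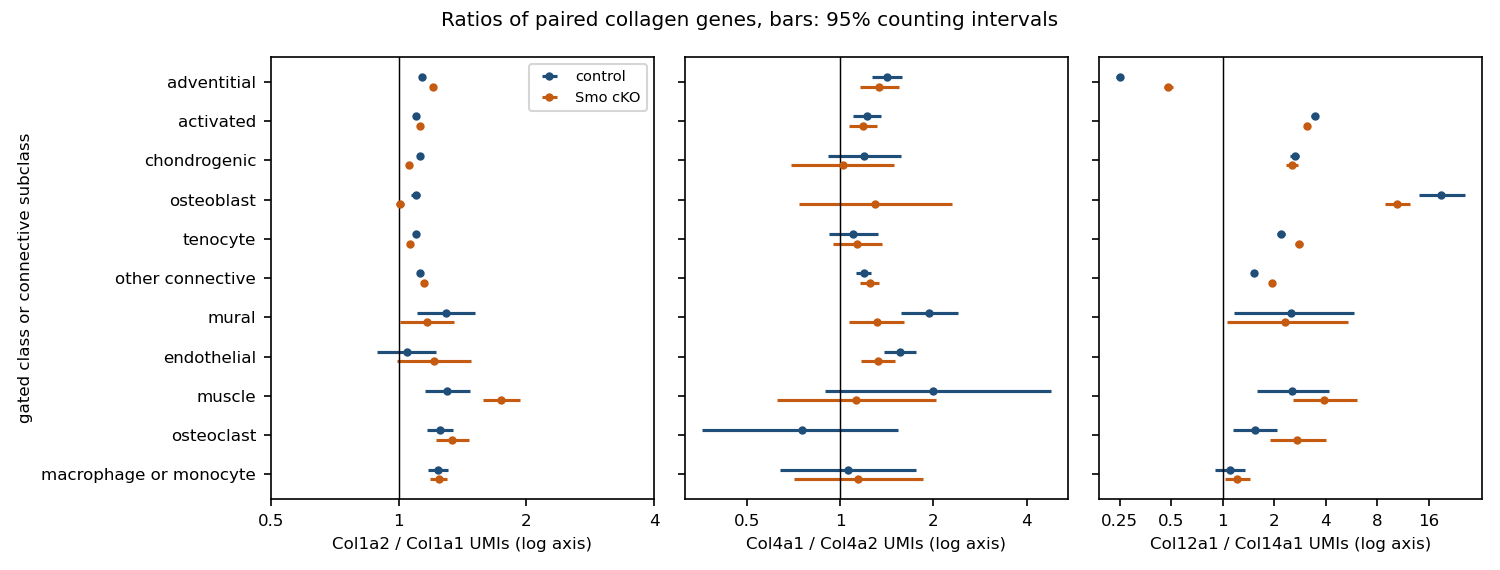
Ratios of UMIs of *Col1a2* to *Col1a1*, *Col4a1* to *Col4a2* and *Col12a1* to *Col14a1* (log axes) in the classes and connective subclasses named on the y axis (neutrophil-like and T- or NK-like cells are not drawn), control in blue and *Smo* cKO in orange, with 95% counting intervals; a point is left out where too few UMIs were present. *Col1a2* to *Col1a1* stays between 1.01 and 1.29 in the connective subclasses and mural-like cells and reaches 1.75 in *Smo* cKO muscle-like cells, while *Col12a1* to *Col14a1* runs from 0.249 to 18.9.

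Connective cells were divided by marker scores into 5 subclasses and a remainder, and 19.3% of control and 20.4% of *Smo* cKO connective cells lay near a limit between subclasses. Adventitial-like fibroblasts (1115 control and 490 *Smo* cKO cells) had the highest *Col3a1* (14797 and 12275 CPM) and by far the highest *Col14a1* (1021 and 650 CPM), *Col15a1* (218 and 222 CPM), *Col6a5* (16.9 and 6.17 CPM), *Col6a6* (20.4 and 11.4 CPM) and *Col4a5* (18.4 and 27.0 CPM). *Col15a1* was at 74.3 CPM or below in every other connective subclass, and *Col14a1* at 335 CPM or below. Activated-like fibroblasts (898 and 1006 cells) had the highest *Col5a3* (696 and 503 CPM), and were the subclass in which *Col7a1*, which anchors epithelia to the dermis in skin, was above 10 CPM (12.7 and 14.7 CPM).

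Osteoblast-like cells (48 control and 81 *Smo* cKO cells) gave the largest share of UMIs to collagens, 5.67% and 4.68%, with *Col1a1* at 17360 and 14364 CPM and *Col1a2* at 19050 and 14476 CPM. *Col3a1* was 17.8% and 18.9% of their collagen UMIs, against 24.8 to 26.1% over all connective cells. They also had the highest *Col11a1* (745 and 726 CPM), *Col12a1* (1136 and 1113 CPM), *Col11a2* (138 and 92.8 CPM) and *Col13a1* (25.6 and 36.4 CPM), a membrane collagen. *Col11a2* was at 9.98 CPM or below in every other connective subclass. In control osteoblast-like cells 1 cell held 57 of the 108 *Col11a2* UMIs. *Col14a1* was lowest in this subclass, at 60.2 and 106 CPM.

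Tenocyte-like cells (324 and 402 cells) had *Col12a1* at 735 and 833 CPM and *Col11a1* at 315 and 330 CPM, beside 759 and 758 CPM and 341 and 333 CPM in chondrogenic-like cells (351 and 212 cells). Chondrogenic-like cells had the highest *Col8a1* (529 and 681 CPM) and *Col8a2* (60.8 and 96.2 CPM). *Col9a1* was highest there, at 19.0 CPM (92 of the 165 UMIs of connective cells) and 7.48 CPM (21 of 59 UMIs).

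*Col2a1*, the chain of cartilage fibrils, came from few cells. It had 150 UMIs in control and 583 UMIs in *Smo* cKO connective cells, from 47 and 50 cells, and the 10 cells with the most *Col2a1* held 73.3% and 93.1% of these UMIs. Only 5 control and 4 *Smo* cKO connective cells held 5 or more *Col2a1* UMIs. In chondrogenic-like cells *Col2a1* was at 22.1 CPM in the control, where the highest of 15 positive cells held 50 of 107 UMIs, and at 96.9 CPM in the *Smo* cKO, where 1 cell held 270 of 272 UMIs. That cell also held 9 *Isg15* UMIs, and without it the *Smo* cKO subclass had 2 *Col2a1* UMIs. In osteoblast-like cells there were 0 UMIs in 48 control cells, which allows a level of up to 3.85 CPM, and 229 UMIs in the *Smo* cKO, of which 1 cell held 184.
The cells with 5 or more *Col2a1* UMIs carried other cartilage genes too. Of them, 4 control and 1 *Smo* cKO cells were chondrogenic-like, 0 and 2 osteoblast-like, and 1 and 1 in the remainder. *Col9a1* was at 223 CPM (20 UMIs) in these 5 control cells and 131 CPM (15 UMIs) in these 4 *Smo* cKO cells. It was at 1.69 and 0.517 CPM in the other connective cells. *Col11a2* was at 190 and 621 CPM against 2.27 and 1.83 CPM, *Acan*, the main proteoglycan of cartilage, at 860 and 586 CPM against 69.9 and 42.1 CPM, and *Sox9* at 190 and 192 CPM against 43.1 and 39.7 CPM. *Col10a1* had 0 UMIs in them. *Acan* and *Sox9* are among the markers of chondrogenic-like cells, and they and the limit of 5 UMIs were chosen after values were seen.

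Collagen RNA was compared between connective cells of the control library and of the *Smo* cKO library, in which both *Smo* alleles can be deleted in Sox9+ lineage cells. With all cells kept above, most collagen genes were lower in the *Smo* cKO library by a modest amount. Under the limit on detected genes that the study applied, the median collagen was not lower, though it stayed below the median gene. Of the 22 genes at 10 CPM or more, 17 (77.3%) had a lower level in the *Smo* cKO, beside 46.5% of all 7263 genes at that level. The median log2 ratio of *Smo* cKO to control was -0.23 for collagens and 0.02 for all genes. The study left out cells with more than 2000 genes, which would keep 1395 control and 832 *Smo* cKO connective cells. Under that limit the median log2 ratio was 0.0053 for collagens, with 12 of 25 below 0, and 0.133 for all genes. The share of all genes below 0 under that limit is not given here. Collagens still took a lower share of connective UMIs in the *Smo* cKO under it. With 1 library per genotype, a 1.5-fold difference stood in for a test. One collagen, *Col23a1* (14.6 and 9.33 CPM; log2 ratio -0.64, interval -0.77 to -0.51), was 1.5-fold lower, where the background was 1.57% of all genes, and 0 were 1.5-fold higher, where the background was 2.24%. At 2-fold 0 collagens passed, beside 0.922% of all genes higher and 0.262% lower. *Col23a1* encodes a membrane collagen. Its log2 ratio was -0.06 under the limit of 2000 genes, -0.50 as a mean over cells and -0.57 in cells of 5000 to 20000 UMIs, so that the 1.5-fold difference was lost in all 3 settings.

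**Figure D4:**
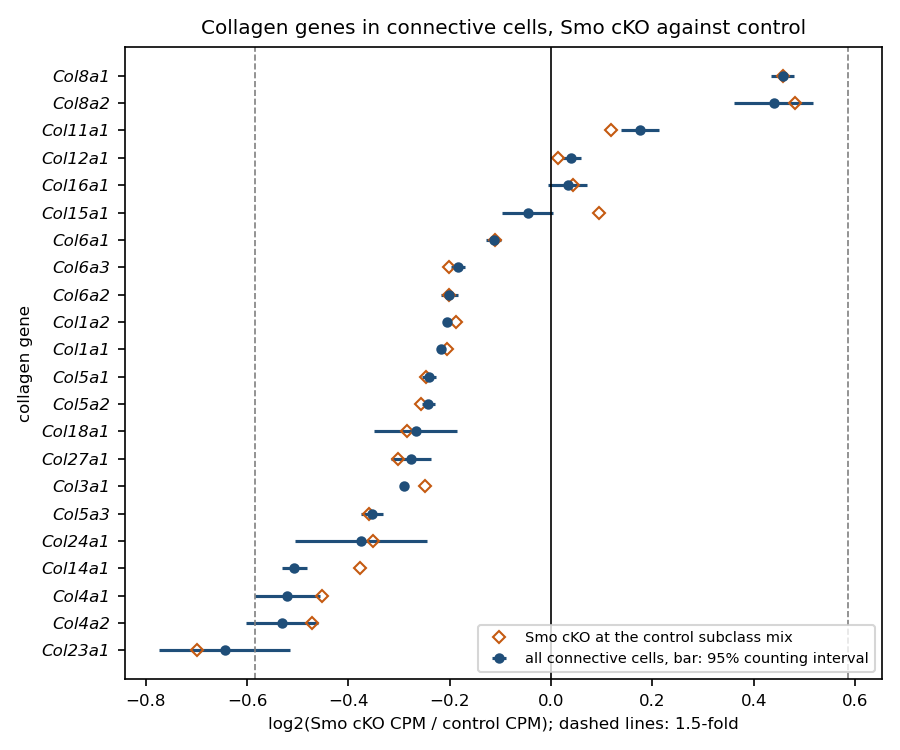
log2 ratio of *Smo* cKO to control CPM in connective cells (x axis) for the 22 collagen genes at 10 CPM or more (y axis), as found (blue, with 95% counting intervals) and with the *Smo* cKO level recomputed at the control mix of subclasses (orange diamonds); dashed lines mark 1.5-fold. Blue points lie from -0.64 for *Col23a1* to 0.46 for *Col8a1*, and 17 of 22 lie below 0.

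The major fibrillar chains differed by similar amounts. The log2 ratio was -0.22 for *Col1a1*, -0.21 for *Col1a2*, -0.29 for *Col3a1*, -0.24 for *Col5a1*, -0.24 for *Col5a2* and -0.35 for *Col5a3*, and the type VI chains were at -0.11 to -0.20. Under the limit of 2000 genes *Col6a1*, *Col6a2* and *Col6a3* were at 0.28, 0.29 and 0.08, while *Col1a1*, *Col1a2* and *Col3a1* were at -0.14, -0.30 and -0.35. *Col11a1*, which pairs with types II and V, was at 0.18, and at 1.05 under the limit of 2000 genes. *Col24a1* and *Col27a1* were at -0.37 and -0.28, and at -0.64 and -0.15 under that limit.
Among network collagens, types IV and VIII differed in sign. *Col4a1* (56.0 and 39.0 CPM; log2 ratio -0.52, interval -0.58 to -0.46) and *Col4a2* (45.9 and 31.8 CPM; log2 ratio -0.53, interval -0.60 to -0.46) were lower in the *Smo* cKO, and their intervals overlapped. *Col8a1* (314 and 431 CPM; log2 ratio 0.46, interval 0.43 to 0.48) and *Col8a2* (26.9 and 36.4 CPM; log2 ratio 0.44, interval 0.36 to 0.52) were higher. Both encode chains of type VIII collagen. The limit of 2000 genes put *Col4a1* at 0.0053 and *Col4a2* at 0.09, and *Col8a1* and *Col8a2* at 1.15 and 1.10, so that the lower level of type IV was not found under it.
Among FACIT collagens *Col14a1* was lower (347 and 244 CPM; log2 ratio -0.51, interval -0.53 to -0.48), while *Col12a1* (483 and 497 CPM) and *Col16a1* (129 and 132 CPM) were at log2 ratios of 0.04 and 0.03. Under the limit of 2000 genes *Col14a1* was at -0.60, *Col12a1* at 0.69 and *Col16a1* at 0.33.

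The 2 libraries differed in their mix of subclasses. Adventitial-like cells were 17.4% of control and 9.02% of *Smo* cKO connective cells. When the *Smo* cKO levels were recomputed at the control mix, the log2 ratio of *Col14a1*, the adventitial-rich gene, was -0.38 in place of -0.51, that of *Col3a1* was -0.25 in place of -0.29, and that of *Col8a1* stayed at 0.46. *Col15a1*, at -0.05 over all connective cells, was at 0.10 at the control mix. It was higher in the *Smo* cKO in all 6 subclasses, by 0.02 to 0.62 on the log2 scale.

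Within subclasses, the lower level of *Col1a1* and *Col1a2* was not uniform. *Col3a1*, *Col5a1* and *Col5a2* were lower in the *Smo* cKO in all 6 subclasses. Under the limit of 2000 genes these 3 were at 0.09, 0.0045 and 0.08 in activated-like cells. In adventitial-like cells *Col1a1* was at 12545 CPM (control) and 9398 CPM (*Smo* cKO), a log2 ratio of -0.42, and *Col1a2* was at -0.34. The median log2 ratio of all genes in that subclass was 0.16 and that of its 24 collagens 0.06, so that these ratios are larger relative to the median gene. In tenocyte-like cells *Col1a1* was at 10008 and 10454 CPM (0.06), and collagens were 3.87% and 3.88% of UMIs. In chondrogenic-like cells *Col1a1* was at 11171 and 11187 CPM, a log2 ratio of 0.00. Under the limit of 2000 genes this contrast was not kept. *Col1a1* was then at -0.23 in adventitial-like, -0.19 in tenocyte-like and -0.08 in chondrogenic-like cells, and *Col1a2* at -0.23, -0.43 and 0.01. In activated-like cells 0 of 21 collagen genes passed 1.5-fold in either direction, where the background was 3.03% higher and 1.14% lower. *Col8a1* and *Col8a2* were higher in the *Smo* cKO in all 6 subclasses, by 0.31 to 0.85 and by 0.26 to 0.66. Under the limit of 2000 genes *Col8a2* in tenocyte-like cells was at -0.63 and *Col15a1* in chondrogenic-like cells at -0.29. No intervals are given for ratios under that limit, and those of low genes in small subclasses may rest on few UMIs.

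**Figure D5:**
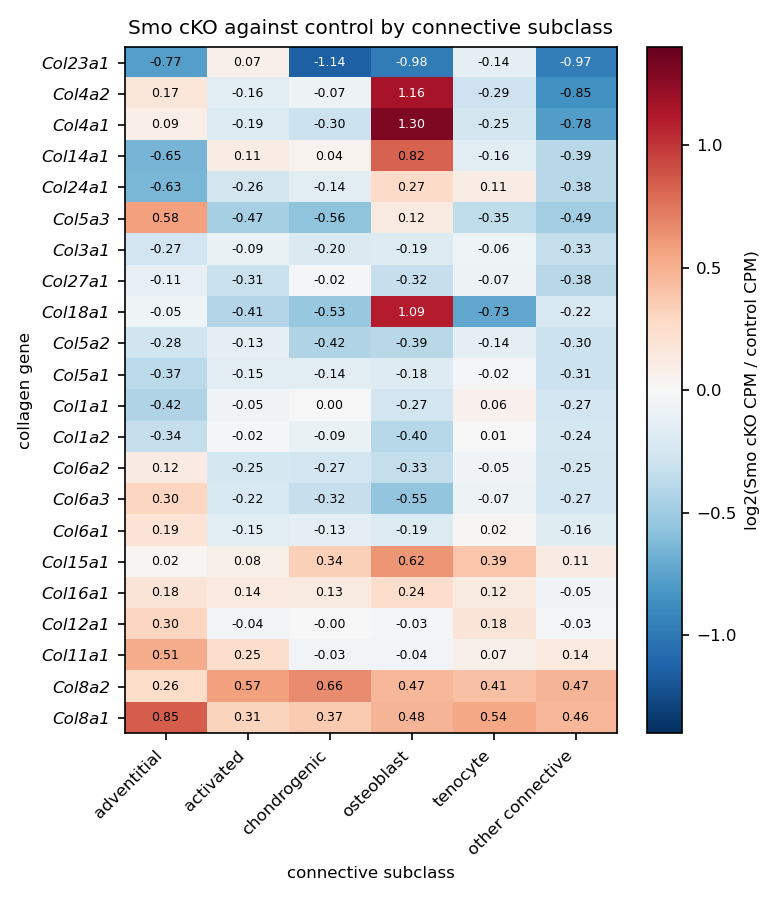
Heat map of the log2 ratio of *Smo* cKO to control CPM for the 22 collagen genes (rows) in the 6 connective subclasses (columns), with the value in each cell. The rows of *Col8a1*, *Col8a2* and *Col15a1* are above 0 in all 6 columns, and *Col4a1* and *Col4a2* are at -0.78 and -0.85 in the remainder but above 0 in adventitial-like and osteoblast-like cells.

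In adventitial-like cells 5 members passed 1.5-fold. *Col6a5* (16.9 and 6.17 CPM; 155 and 32 UMIs; log2 ratio -1.46, interval -2.05 to -0.90), *Col6a6* (20.4 and 11.4 CPM; 187 and 59 UMIs; -0.85), *Col14a1* (1021 and 650 CPM; -0.65) and *Col24a1* (19.5 and 12.5 CPM; -0.63) were lower, 4 of 24 (16.7%) beside a background of 3.94%. *Col8a1* was higher (192 and 346 CPM; log2 ratio 0.85, interval 0.75 to 0.94), 1 of 24 beside a background of 18.2%. *Col6a5* and *Col6a6* encode further type VI chains that can take the place of the chain encoded by *Col6a3*, which was at 598 and 738 CPM in the same cells (log2 ratio 0.30). Under the limit of 2000 genes *Col6a5* was at -0.44, *Col6a6* at -0.04 and *Col14a1* at -0.24, so that 0 of these 3 were 1.5-fold lower, while *Col8a1* was at 1.62. *Col6a5* stayed 1.5-fold lower under the other 11 alternatives. *Col6a6* was also short of 1.5-fold as a mean over cells (-0.32) and without *Isg15* cells (-0.41). *Col14a1* was short of it in the same settings (-0.41 and -0.35) and in cells of 5000 to 20000 UMIs (-0.50), and *Col24a1* passed it in 7 of 11 alternatives.
In chondrogenic-like cells *Col9a1* (log2 ratio -1.35, interval -2.10 to -0.65) and *Col23a1* (28.3 and 12.8 CPM; -1.14) were lower, 2 of 24 beside a background of 5.46%, and *Col8a2* (0.66) and *Col2a1* were higher, 2 of 24 beside 5.81%. In tenocyte-like cells *Col18a1* was lower (29.6 and 17.8 CPM; -0.73), 1 of 22 beside 2.21%, and 0 were higher, beside 4.14%. In the remainder of the connective cells *Col4a1* (57.8 and 33.7 CPM; -0.78), *Col4a2* (48.6 and 27.1 CPM; -0.85) and *Col23a1* (15.7 and 8.03 CPM; -0.97) were lower, 3 of 22 beside a background of 1.58%, and 0 were higher, beside 2.57%. With the limit of 2000 genes these 3 were at -0.23, -0.29 and -0.30, and *Col18a1* in tenocyte-like cells was at 0.74. *Col11a1* and *Col15a1* had the same ratio as *Col18a1* in those cells, as happens with few UMIs. In adventitial-like cells *Col4a1* was at 0.09 and *Col4a2* at 0.17 with all kept cells, and at 0.73 and 1.04 with that limit.

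In macrophage- or monocyte-like, osteoclast-like, muscle-like and endothelial-like cells the median collagen stood at 6.21 to 10.0% of its connective level, so that most of the following ratios are of low levels. In macrophage- or monocyte-like cells the median log2 ratio of *Smo* cKO to control was -0.26 for the 14 collagens at 10 CPM or more and -0.07 for all genes. Of these 14, *Col5a3* and *Col18a1* were 1.5-fold lower, beside a background of 3.99%, and 0 were higher, beside 3.92%. In osteoclast-like cells 3 of 15 (*Col14a1*, *Col16a1* and *Col18a1*) were 1.5-fold lower, beside 3.46%, and 0 higher, beside 6.22%. The intervals of *Col16a1* (-1.67 to 0.11) and *Col18a1* (-1.57 to 0.12) included 0, and 0 of the 3 were 1.5-fold lower with classes taken from clusters. In muscle-like cells 6 of 20 were 1.5-fold lower, beside a background of 10.4%, and 0 higher, beside 10.6%. The 6 were *Col5a3*, *Col6a3*, *Col14a1*, *Col15a1* (11 and 9 UMIs), *Col25a1* and *Col27a1*, and the intervals of *Col14a1* (-1.55 to 0.09), *Col15a1* (-2.63 to 0.23), *Col25a1* (-2.52 to 0.01) and *Col27a1* (-2.17 to 0.39) included 0. With classes taken from clusters, *Col5a3* (-0.27), *Col6a3* (-0.0028), *Col14a1* and *Col15a1* were not 1.5-fold lower in muscle-like cells.
In endothelial-like cells 11 of 21 were 1.5-fold lower, beside a background of 15.4%, and *Col23a1* alone was higher (1 and 10 UMIs), beside 18.9%. The 11 were fibrillar, type VI and other genes that are abundant in connective cells, such as *Col1a1* (573 and 329 CPM; -0.80), and *Col13a1*. The intervals of *Col6a1* (-1.42 to 0.17), *Col11a1* (-2.80 to 0.86) and *Col13a1* (-2.88 to 1.47) included 0. The genes abundant in endothelial-like cells were not among them, with *Col4a1* at -0.29, *Col4a2* at -0.06, *Col15a1* at -0.49 and *Col18a1* at -0.36. With classes taken from clusters in place of gates, *Col1a1* in endothelial-like cells was at 0.28 and *Col3a1* at 0.29, and without the 3 control and 3 *Smo* cKO endothelial-like cells whose barcodes occurred in both libraries *Col1a2* was at 0.02 in place of -0.59.

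Collagen levels also differed with the number of cycling markers detected and with depth. The markers were counted without scaling for depth, so that the cell cycle and depth cannot be told apart in this split. Cycling connective cells, with 3 or more cycling markers detected, gave 3.08% of their UMIs to collagens (control) and 2.78% (*Smo* cKO), beside 4.51% and 3.89% in non-cycling cells, in which 0 of these markers were detected. *Col14a1* was at 153 CPM in cycling and 643 CPM in non-cycling control cells (log2 ratio -2.07), and *Col15a1* at 45.5 and 120 CPM (-1.39). *Col5a3* was higher in cycling control cells, at 469 and 368 CPM (0.35), and *Col6a1* (-0.02) and *Col6a2* (0.01) had intervals that included 0. In the *Smo* cKO the same ratios were -1.47 for *Col14a1*, -1.32 for *Col15a1*, 0.24 for *Col5a3*, -0.33 for *Col6a1* and -0.28 for *Col6a2*. Among connective cells of 5000 to 10000 UMIs, collagens took 4.60% (control) and 3.98% (*Smo* cKO), and above 20000 UMIs 3.13% and 2.82%. The control share was above the *Smo* cKO share in all 5 depth bands. Single genes differed by unlike amounts. *Col14a1* was at 738 (control) and 515 CPM (*Smo* cKO) from 5000 to 10000 UMIs, and at 176 and 170 CPM above 20000. *Col8a1* was at 246 and 504 CPM in the first of these bands and at 326 and 388 CPM in the second. *Col1a1* was at 11341 and 11672 CPM below 5000 UMIs and was lower in the *Smo* cKO in every other band. *Isg15*-positive *Smo* cKO cells were deeper, with a median of 18322.5 UMIs against 11941 in the others. The part of depth and of the cell cycle in the difference between libraries was not tested.

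Collagen shares were also compared by the number of *Isg15* UMIs, a count not scaled for depth. The part of *Isg15* in the difference between libraries was not tested. *Smo* cKO connective cells with under 2 *Isg15* UMIs gave 3.34% of their UMIs to collagens and those with 2 or more gave 2.94%, beside 3.70% and 3.72% in the control. *Col8a1* was at 446 CPM in *Smo* cKO cells with under 2 *Isg15* UMIs and 409 CPM in those with 2 or more, beside 314 and 300 CPM in the control. *Col8a2* was at 43.0 and 27.2 CPM in the *Smo* cKO, beside 26.9 and 24.6 CPM in the control. Connective cells with a tdTomato UMI gave 3.17% (49 control cells) and 2.98% (122 *Smo* cKO cells) of UMIs to collagens. In these cells *Col1a1* was at 8103 and 7692 CPM, and *Col14a1* at 272 and 193 CPM. A cell without a tdTomato UMI may still be of the Sox9+ lineage, since the reporter was rarely detected.

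The genes that act on collagens had a median log2 ratio near 0. *Loxl1* and *Pcolce* of these lists are also markers of the connective class, and *Loxl2* of activated-like cells. Cells were therefore in part chosen for these genes. Of 29 genes for folding, modification, cleavage and crosslinking, 24 were at 10 CPM or more in connective cells, 0 were 1.5-fold higher, beside a background of 2.24%, and 0 lower, beside 1.57%, and their median log2 ratio was -0.01 (range -0.33 to 0.53). *Loxl3*, a crosslinking enzyme, was highest (80.0 and 115 CPM; 0.53), and *Serpinh1*, the chaperone of procollagen, was at 2278 and 2957 CPM (0.38). *P3h3*, a prolyl hydroxylase, was at 77.1 and 61.5 CPM (-0.33), and *Pcolce2*, an enhancer of propeptide cleavage, at 23.6 and 19.0 CPM (-0.32). Of 12 receptors and uptake genes 5 were at this level, with a median of -0.09 and 0 of them past 1.5-fold. *Ddr1* and *Ddr2*, receptors for collagens, were at 14.5 and 12.6 CPM (-0.19) and at 58.4 and 54.8 CPM (-0.09), and *Mrc2*, which takes up collagen for degradation, at 82.4 and 75.8 CPM (-0.12).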

How the data were processed

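scRNAseq data of mouse rib callus were analysed from 2 libraries, 1 control and 1 *Smo* cKO, each a pool of 3 animals. The deposited matrices hold counts of UMIs per gene and cell, whole numbers that the authors made with Cell Ranger 3.0.2 on mm10. No normalized values were used. Depth was 105367110 and 112700220 UMIs over 10747 and 10512 barcodes.

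Cells with at least 200 genes and under 10% mt- UMIs were kept. The study's upper limit of 2000 genes was run as an alternative. A cell entered a class when it held UMIs of 3 or more markers of 1 of the lists and its share of that list was 1.5 times that of any list of another family. Connective cells entered a subclass by the mean standardised level of its markers (3 or more markers, minimum 0.3, gap 0.2). UMIs were summed per class and library and given as CPM of all UMIs of that class. The study's own cell labels were not used here. Shares have exact Clopper-Pearson intervals, levels exact Poisson intervals and log2 ratios conditional exact intervals, all at 95% and for counting error only. The limit allowed by a count of 0 was 3 counts. With 1 library per genotype no test was made; a gene at 10 CPM or more in at least 1 library was counted as past the rule of size when its levels differed 1.5-fold. Every member at 10 CPM or more in a class of 50 or more cells per library was described, with up to 4 genes of each of the 2 other lists, those with the largest log2 ratio. The members and lists were chosen with earlier results of these data known. The rule was tested on simulated counts that carry counting error only. Variation between libraries or animals was not simulated, so that its rate of false calls in these data is not known.

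Exons and positions came from GENCODE vM21, which annotated all 44 members, and promoter windows from RefSeq (GRCm38.p6). The exon shown is the first of 54 bases inside the longest run of the repeat that begins with a whole glycine codon. Python 3.11.15, numpy 2.4.6, scipy 1.17.1, scanpy 1.11.5, igraph 0.11.9 and edgeR 4.0.16 were used. The closing section draws on the 13 alternatives listed at the start and 3 added after seeing the data. It prints no values for a gate with 1 more marker, the scaling factor of edgeR (TMM) or scaling by the median of ratios. Under each of these, 22 of 22 collagens kept the sign of their log2 ratio in connective cells.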

Additional observations from a re-analysis of the deposited data

Results flagged for a closer look

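*Col23a1* moved in opposite directions in 2 classes. Its log2 ratio of *Smo* cKO to control was 3.30 in endothelial-like cells, from 1 UMI in 52 control cells and 10 UMIs in 57 *Smo* cKO cells, and -1.14 in chondrogenic-like cells, from 137 and 36 UMIs. The difference between the 2 classes was not tested, and the interval in endothelial-like cells ran from 0.48 to 8.74.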

How the results depend on the processing

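No paired analysis was possible because each genotype has 1 library, which also leaves no replicate to leave out. The collagen share of connective UMIs was higher in the control under every alternative run, at 3.70% and 3.18% with an upper limit of 6000 genes, 3.69% and 3.15% under 5% mt- UMIs, 3.74% and 3.22% with clusters, 3.84% and 3.28% without collagens in the denominator, 4.00% and 3.43% as a mean over cells, 3.73% and 3.22% without barcodes found in both libraries, and 4.05% and 3.51% in cells of 5000 to 20000 UMIs. The *Smo* cKO share was 3.21% at the control mix of subclasses and 3.34% without cells of 2 or more *Isg15* UMIs. The alternatives on shared barcodes, *Isg15* and the 5000 to 20000 UMIs were chosen after seeing the data. The log2 ratio kept its sign for at least 21 of 22 collagens in connective cells except with a limit of 2000 genes, which kept 1395 and 832 connective cells. There the share was 4.44% and 3.86%, the sign was kept for 15 of 22, 4 collagens were 1.5-fold higher and 4 lower (15% and 4.82% of all genes), the median log2 ratio was 0.0053, *Col6a1* in endothelial-like cells was at 1.80 and *Col18a1* in tenocyte-like cells at 0.74. The cause was not tested. The count of 1.5-fold lower collagens was 0 as a mean over cells (1 higher), at a minimum of 50 CPM, at 2-fold, and in cells of 5000 to 20000 UMIs (2 higher, *Col2a1* and *Col8a1*). With no minimum, 6 were higher and 6 lower, and the median was -0.20. Without the *Isg15* cells 1 was higher (*Col8a2*) and 2 were lower (*Col4a2* and *Col23a1*), the median was -0.17, and *Col2a1* in chondrogenic-like cells was at -4.56, since the cell with most of its UMIs was left out. Except at 2-fold and with the limit of 2000 genes, these counts are given without the share of all genes. They are therefore not read against a background. With clusters *Col15a1* in muscle-like cells was at 0.51, *Col16a1* and *Col18a1* in osteoclast-like cells at 0.15 and 0.0075, and in endothelial-like cells *Col1a1* at 0.28, *Col1a2* 0.48, *Col3a1* 0.29, *Col5a1* 0.15, *Col6a1* 0.48, *Col6a2* 0.45, *Col6a3* 0.35 and *Col12a1* 0.12. As a mean over cells, *Col6a1* and *Col13a1* in endothelial-like cells were at 0.67 and 0.53. Without shared barcodes, *Col1a2*, *Col6a1*, *Col11a1* and *Col13a1* in endothelial-like cells were at 0.017, 0.23, 0.11 and 0.11. With gated classes, the values that these last 3 alternatives changed were below 0. Low counts limit these endothelial values, with 52 and 57 cells. With a limit of 2000 genes *Col6a1* and *Col23a1* had the same ratio there, 1.80, as happens with few UMIs.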
